A study of Mus musculus with 14 samples.

Results

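The 14 mouse somatic cell nuclear transfer (SCNT) embryos were grouped by the number of transcripts they contained, whatever their treatment. An entry, 1 RefSeq transcript at 1 locus, was called present at 1 RPKM or more, where RPKM is the read count scaled for transcript length and for the total reads of the embryo. Embryos with 5000 or more entries present were called transcript-rich (8 of 14) and those with fewer were called transcript-poor (6 of 14). Because the classes were chosen by these measured values, every difference in transcript number or level between rich and poor embryos is given as a description, without a test. Single two-cell embryos were used for RNA sequencing, with 1 library per embryo made from part of the eluted RNA and amplified in separate rounds of PCR. All embryos were of strain B6D2F1 and were collected at 28 h, counted from nuclear transfer in the labels and from egg activation in the study's text. Every embryo, controls included, was activated with strontium in the presence of cytochalasin B and cultured with deionized bovine serum albumin. Trichostatin A (TSA), a histone deacetylase inhibitor, was given at 50 nM from 0 to 8 h after activation, and vitamin C (VC), a cofactor of demethylating dioxygenases, at 10 µg/ml from 0 to 8 h or from 8 to 15 h. The groups were Control (3 embryos), VC(0-8 h) (1), VC(8-15 h) (2), TSA(0-8 h) (3), TSA+VC(0-8 h) (2) and TSA+VC(8-15 h) (3), where TSA in the combined groups was also given from 0 to 8 h.

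A mouse embryo starts its development on mRNA stored in the oocyte. At the two-cell stage the embryonic genome is switched on while maternal mRNA is degraded, so an embryo of this age holds a mixture of the remaining oocyte mRNA and newly made transcripts. In SCNT embryos the incoming somatic nucleus has to take up this programme. RPKM is relative to the reads of each embryo, and the amount of RNA per embryo and the number of molecules caught in the library cannot be told apart from it.

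The rich embryos were TSA+VC(0-8 h) replicate 2 with 6728 entries present, VC(8-15 h) replicate 1 with 6342, VC(0-8 h) replicate 1 with 6244, TSA+VC(8-15 h) replicates 3, 2 and 1 with 5720, 5539 and 5489, and Control replicates 3 and 1 with 5439 and 5197. The poor embryos were TSA+VC(0-8 h) replicate 1 with 4864 entries, TSA(0-8 h) replicates 3, 1 and 2 with 4249, 4198 and 3556, Control replicate 2 with 3819 and VC(8-15 h) replicate 2 with 3322. The embryos on either side of the limit, with 5197 and 4864 entries, lay closer to each other than to the ends of their classes. The 3 TSA+VC(8-15 h) embryos were all rich and the 3 TSA(0-8 h) embryos were all poor, while the Control, VC(8-15 h) and TSA+VC(0-8 h) groups held both classes.

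The 300 bases around a transcription start are shown for 4 genes that stand for the patterns described here, with each CG dinucleotide in capitals. Arid5a and Cep250 are genes of the entries present in every rich and in no poor embryo that have a single start listed, Lars2 is one of the highest entries common to all embryos, and Omt2a took a larger median share in poor embryos. The sequences are those of RefSeq (GRCm38.p6) and each was found once, without a mismatch, in the mm9 genome used for the files, at chr1:36364328-36364627, plus strand (Arid5a), chr2:155782044-155782343, plus strand (Cep250), chr9:123275795-123276094, plus strand (Lars2) and chr9:78161806-78162105, minus strand (Omt2a). Each window runs from 250 bases before to 50 bases after the start listed for the promoter. The mm9 gene positions list the start of Cep250 at chr2:155782194 and that of Lars2 at chr9:123276058, each at another place inside its window. They list that of Omt2a at chr9:78162604, outside its window, so the window shown for Omt2a does not cover that start.
Arid5a: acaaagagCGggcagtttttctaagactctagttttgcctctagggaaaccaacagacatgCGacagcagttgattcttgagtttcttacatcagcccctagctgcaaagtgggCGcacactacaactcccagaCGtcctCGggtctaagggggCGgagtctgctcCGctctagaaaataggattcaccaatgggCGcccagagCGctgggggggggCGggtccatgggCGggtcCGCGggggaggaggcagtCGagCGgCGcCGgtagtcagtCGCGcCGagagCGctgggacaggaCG
Cep250: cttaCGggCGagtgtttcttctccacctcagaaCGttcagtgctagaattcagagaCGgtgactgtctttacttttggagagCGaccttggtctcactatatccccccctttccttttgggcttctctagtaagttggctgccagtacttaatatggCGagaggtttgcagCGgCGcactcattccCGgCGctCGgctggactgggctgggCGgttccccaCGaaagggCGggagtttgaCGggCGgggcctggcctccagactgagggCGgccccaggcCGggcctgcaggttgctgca
Lars2: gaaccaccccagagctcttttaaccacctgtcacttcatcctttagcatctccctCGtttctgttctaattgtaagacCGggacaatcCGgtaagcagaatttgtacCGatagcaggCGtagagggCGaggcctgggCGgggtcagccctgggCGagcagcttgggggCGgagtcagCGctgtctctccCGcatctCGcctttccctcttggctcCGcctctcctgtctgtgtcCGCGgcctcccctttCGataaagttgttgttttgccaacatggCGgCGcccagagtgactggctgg
Omt2a: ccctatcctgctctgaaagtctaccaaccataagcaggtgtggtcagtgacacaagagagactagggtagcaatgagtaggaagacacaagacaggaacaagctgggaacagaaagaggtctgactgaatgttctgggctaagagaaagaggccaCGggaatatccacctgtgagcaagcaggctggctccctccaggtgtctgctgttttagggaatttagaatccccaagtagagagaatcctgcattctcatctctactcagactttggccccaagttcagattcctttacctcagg
The windows of Arid5a, Cep250 and Lars2 contained 22, 18 and 18 CG and that of Omt2a contained 1. CG, which reads the same on both strands, was found at least once in 94.6% of the 32851 RefSeq windows of this length, at least 18 times in 29.7% and at most once in 14.1%. The CG counts are a description of these windows.

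The classes separated in the middle of the range of levels. Between 10 and 100 RPKM, rich embryos had 2795 to 3861 entries (median 3104) and poor embryos 1065 to 2306 (median 1525), so that the classes did not overlap. Between 1 and 10 RPKM the numbers were 1483 to 1949 in rich and 1227 to 1621 in poor embryos, and these overlapped. At 100 RPKM or more, rich embryos had 767 to 979 entries and poor embryos 937 to 1043. At 1000 RPKM or more there were 12 to 32 entries in rich and 24 to 47 in poor embryos. Entries above 0 but under 1 RPKM numbered 2891 to 4118 in rich and 3396 to 5151 in poor embryos.

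**Figure D1:**
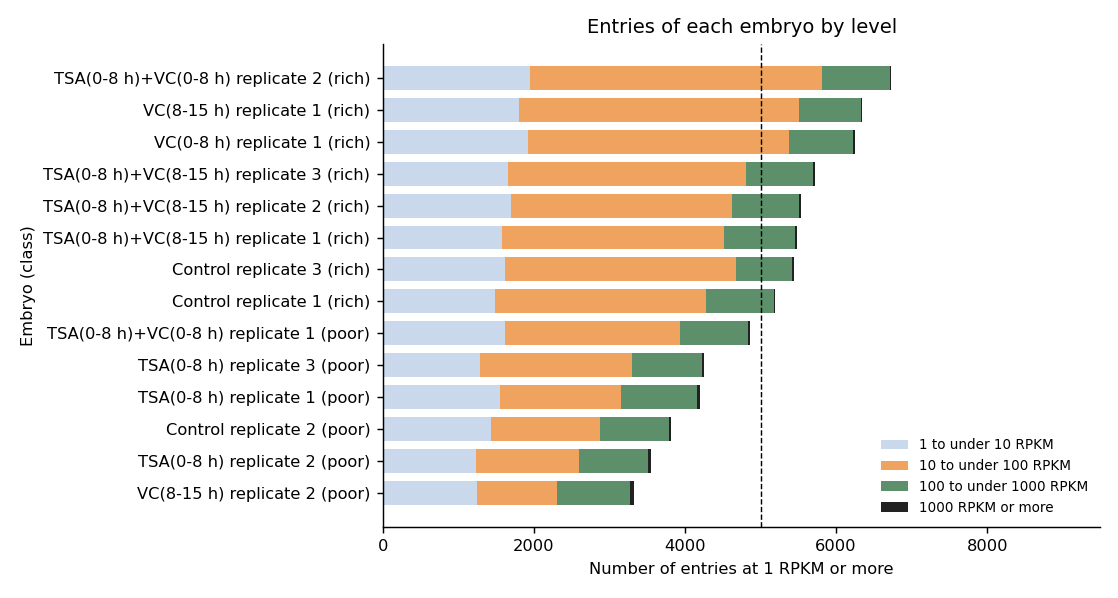
Number of entries at 1 RPKM or more in each of the 14 embryos (x axis), split by level in RPKM and ordered by the total, with the limit of 5000 entries as a dashed line. The band from 10 to under 100 RPKM ran from 1065 to 2306 entries in poor and from 2795 to 3861 in rich embryos, while the band from 100 to under 1000 RPKM held 741 to 1003 entries in every embryo.

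The RNA of poor embryos was spread over fewer transcripts. The 500 highest entries took 43.6 to 55.5% of the summed RPKM in rich and 56.4 to 68.8% in poor embryos, without overlap. The 100 highest entries had a median share of 25.5% in rich and 33.5% in poor embryos, and these shares overlapped. The effective number of transcripts, the exponential of the Shannon entropy of the RPKM shares, was 1620 to 2751 (median 2101) in rich and 977 to 1570 (median 1147) in poor embryos. This number follows from the same values that set the classes.

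The number of reads counted overlapped between the classes, with 4260094 to 13589389 reads (median 8817366) in rich and 3021540 to 11753807 (median 6718698) in poor embryos. A floor of 3 reads equals, at a length of 1 kb, 0.221 RPKM in the deepest and 0.993 RPKM in the shallowest embryo, and covers counting error only. Across the 14 embryos, the number of entries and the reads counted had a Pearson's r of 0.303 (permutation test, two-sided, p = 0.288, adjusted p = 0.288) and a Spearman's rho of 0.314 (p = 0.274, adjusted p = 0.288). Without the 2 embryos farthest from the median depth, r was 0.0782 (permutation p = 0.804), and within the lane of 6 embryos, r was 0.360 (exact permutation p = 0.567). When the reads of each embryo were thinned to the 3021540 of the shallowest, rich embryos kept 5204 to 6753 entries and poor embryos 3311 to 4867. The VC(0-8 h) embryo, with 4260094 reads, had 6244 entries, and TSA(0-8 h) replicate 3, with 11753807 reads, had 4249.

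**Figure D2:**
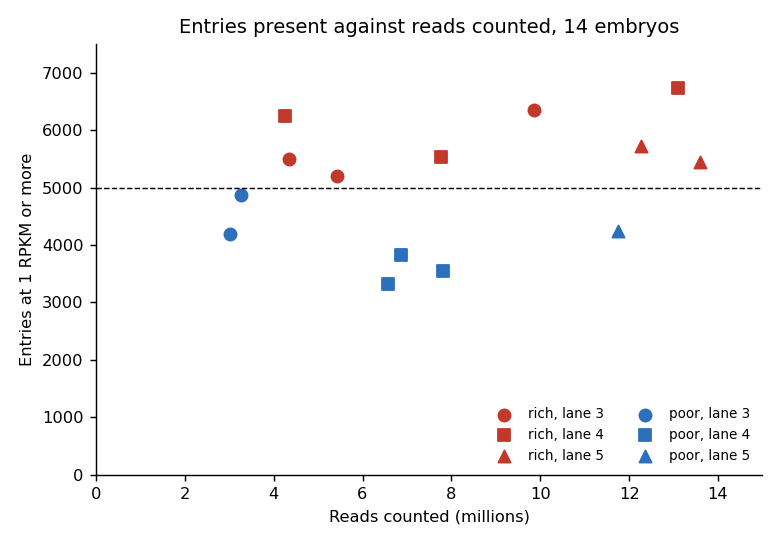
Entries at 1 RPKM or more (y axis) against reads counted (x axis) for the 14 embryos, coloured by class and with a symbol for each sequencing lane. Both classes span a wide range of depth, r is 0.303 over all embryos, and each of the 3 lanes holds embryos of both classes.

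Each sequencing lane, as named in the library identifiers, contained both classes, with 3 rich and 2 poor embryos in lane 3, 3 and 3 in lane 4, and 2 and 1 in lane 5. Low values were, however, shared within a lane. For entries at 100 RPKM or more in 1 embryo and under 1 RPKM in all others, another embryo of the same lane had reads in 560 of 1075 cases (52.1%), and an embryo of another lane in 162 of 2513 cases (6.45%). The reads amounted to 9.71 per 10000 reads of the entry in the high embryo within a lane and to 1.25 per 10000 in other lanes. Same-lane values were 17.3 to 73.8% in rich and 26.1 to 63.5% in poor embryos. Counting an entry as present only when it also had at least 0.5% of the reads of the highest embryo of its lane, a limit chosen after seeing the data, left 5142 to 6692 entries in rich and 3136 to 4729 in poor embryos.

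**Figure D3:**
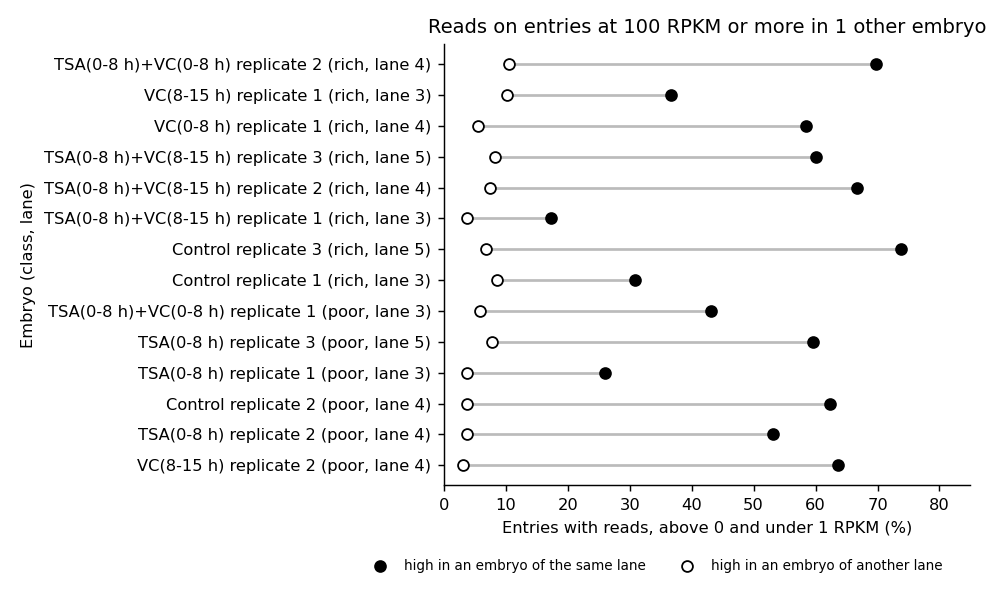
Share of entries with reads in an embryo (x axis, in %) among entries that were under 1 RPKM there and at 100 RPKM or more in 1 other embryo only. Filled points are for a high embryo in the same lane and open points for one in another lane; in all 14 embryos the filled point, 17.3 to 73.8%, lies above the open point, 3.11 to 10.6%.

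The identity of the embryos was checked with marker genes. Of 8 oocyte and embryo marker genes, 5 to 7 were present in rich embryos and 4 to 6 in poor embryos, and the growth factor gene Bmp15 was at 220 to 520 RPKM in rich and 91.3 to 467 in poor embryos. Cumulus and granulosa cells are the somatic cells around the oocyte, and by the study's methods cumulus cells were also the nuclear donors. Of 12 marker genes of these cells, none was present in any poor embryo. In rich embryos 0 or 1 of them was present, Has2 with a highest value of 1.82 RPKM and Star with 1.49 RPKM. Fshr, Inha, Inhba and Lhcgr were listed at 0 in every embryo.

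Of 12817 entries present in at least 1 embryo, 848 (6.62%) were present in all 14. With the lane limit of 0.5% this number was 744, so part of the common set rests on low values that the limit does not count. The 8 rich embryos shared 1780 entries and the 6 poor embryos shared 1002, so that the common set was 47.6% of the former and 84.6% of the latter. These 848 entries carried 36.1 to 40.4% of the summed RPKM in rich and 36.2 to 43.7% in poor embryos. A further 2919 entries (22.8%) were present in a single embryo, which was a rich one for 2083 and a poor one for 836 entries.

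The 15 highest entries of the common set by median over the 14 embryos came from Ccdc82, Spin1, Lars2, Ccdc6, Zbed3, Khdc1b, Omt2a, Gm7102, Omt2b, Tlcd2, Srsf5, Dcdc2c, Eif4e1b, Mdm4 and Bmi1. Among them are genes known from the oocyte, with Zbed3 as a member of the subcortical maternal complex, Eif4e1b as an oocyte form of the cap-binding protein and Omt2a and Omt2b as oocyte maturation genes. Ccdc82 was the highest entry, at 7209 to 16648 RPKM (median 10262) in rich and 8739 to 15406 RPKM (median 14226) in poor embryos. It alone took 2.09 to 4.63% of the summed RPKM in rich embryos (median 2.79%) and had a median of 3.66% in poor embryos, and the classes overlapped. Spin1, a reader of methylated histone H3, had an entry at 866 to 2972 RPKM in rich and 687 to 2138 in poor embryos. Ccdc6 was at 1028 to 1775 RPKM in rich and 542 to 1777 in poor embryos, and Khdc1b at 849 to 1924 and 678 to 1473 RPKM. The levels of these 3 overlapped between the classes.

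Lars2, the mitochondrial leucyl-tRNA synthetase, was less even. It was at 913 to 2167 RPKM (median 1521) in rich embryos. In poor embryos it was at 2303 RPKM in TSA+VC(0-8 h) replicate 1, 2114 in TSA(0-8 h) replicate 3, 674 in Control replicate 2, 430 in VC(8-15 h) replicate 2, 74.8 in TSA(0-8 h) replicate 1 and 23.1 in TSA(0-8 h) replicate 2. So 4 poor embryos lay below every rich embryo and the other 2 within or above the rich range.

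The spread among embryos was wider in the poor class even for common entries. The median SD of log2(RPKM + 1) over the 848 entries was 0.97 among the 8 rich and 1.84 among the 6 poor embryos, and it was larger among poor embryos for 717 of the entries. Values under 5 RPKM made up 1.42 to 4.95% of the common entries in rich and 6.25 to 19.2% in poor embryos.

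At the minimum of 1 RPKM, 4 of the 12817 entries (0.0312%) were present in all 8 rich embryos and in no poor embryo. This count was 0 at a minimum of 0.1 RPKM, and 137 when 1 exception was allowed in each class. They came from Slc37a3, a solute carrier gene, Ppp2r2a, a regulatory subunit of protein phosphatase 2A, Arid5a, an RNA-binding protein with an ARID domain, and Cep250, a protein of the linker between centrosomes. In none of the 6 poor embryos did Slc37a3 have more than 5 reads, Ppp2r2a more than 5, Arid5a more than 8 or Cep250 more than 24.

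Slc37a3 was at 25.1, 41.4, 52.7, 56.3, 38.6, 30.4, 48.3 and 2.95 RPKM in the rich embryos, in the order of their number of entries. In the poor embryos it was at 0.151, 0.105, 0.244, 0.179, 0.0945 and 0.187 RPKM. Control replicate 1, the embryo nearest to the limit among the rich, thus had the lowest rich value. The difference of medians was 5.14 on the log2(RPKM + 1) scale and 7.24 with a pseudocount of 0.1, so its size depends on the pseudocount.

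The Ppp2r2a entry was at 32.2, 9.59, 38.9, 8.17, 48.3, 11.2, 30.6 and 74.5 RPKM in the rich embryos in the same order and at 0.0644 to 0.348 RPKM (median 0.183) in the poor embryos. Here Control replicate 1 had the highest value. Ppp2r2a has 2 entries, and their sum reached 16.4 RPKM in a poor embryo, so the difference holds for this entry and not for the gene.

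Arid5a was at 5.75 to 76.5 RPKM (median 10.3) in rich and 0.0308 to 0.333 RPKM (median 0.135) in poor embryos, and TSA+VC(8-15 h) replicate 2 had the highest value. Cep250 was at 1.71 to 19.3 RPKM (median 3.54) in rich and 0.0107 to 0.929 RPKM (median 0.0756) in poor embryos. For Cep250 the classes nearly touched, with 1.71 RPKM in TSA+VC(8-15 h) replicate 3 and 0.929 RPKM in TSA+VC(0-8 h) replicate 1. When the entries of each gene were summed, 3 genes were present in all rich and no poor embryos. Leaving out 1 embryo at a time gave 4 to 12 such entries.

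**Figure D4:**
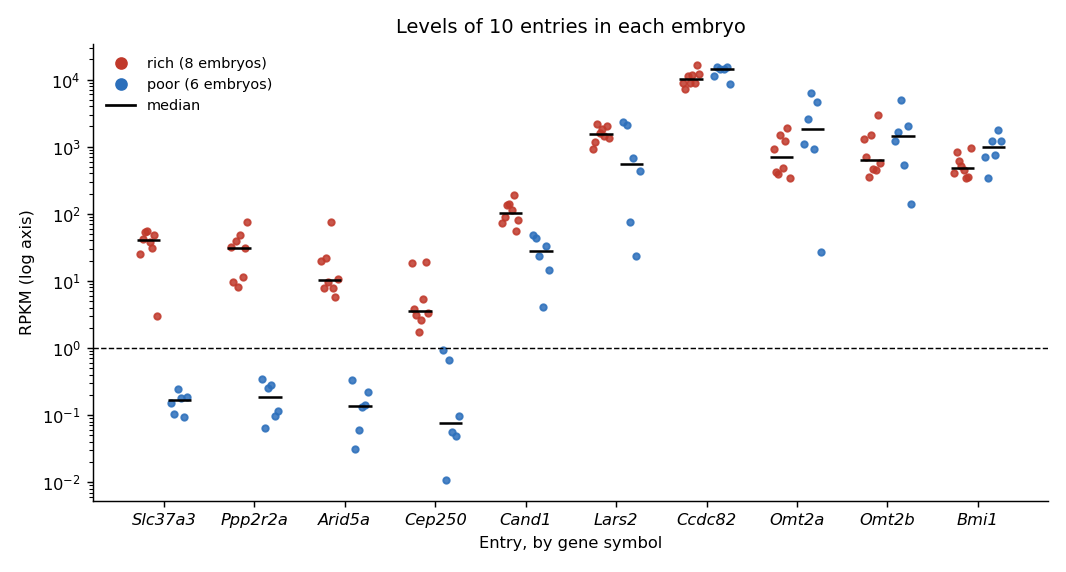
RPKM (log axis) of 10 entries in each rich (red) and poor (blue) embryo, with the median as a black line and 1 RPKM as a dashed line. The first 4 entries lie above 1 RPKM in all 8 rich embryos and below it in all 6 poor embryos, Cand1 is separated above that level, and the entries of Lars2, Ccdc82, Omt2a, Omt2b and Bmi1 overlap between the classes.

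The step from poor to rich was gradual across entries. Of the entries present in all 8 rich embryos, 29 were present in 1 poor embryo, 78 in 2, 153 in 3, 263 in 4, 405 in 5 and 848 in 6. No entry (0 of 12817, 0%) was present in all 6 poor and in no rich embryo, and 3 were present in at least 5 poor and at most 2 rich embryos. These were entries of Ric3, Pgrmc1 and Gtse1, named after their values were seen. Ric3, a chaperone of acetylcholine receptors, was at 0.402 to 136 RPKM (median 20.7) in poor and 0.0312 to 57.8 RPKM (median 0.352) in rich embryos. Pgrmc1, a haem-binding membrane protein, was at 0.248 to 163 RPKM (median 11.4) in poor and 0 to 65.3 RPKM (median 0.258) in rich embryos. Of all entries present in any embryo, 69.6% were present in a larger share of rich than of poor embryos and 22.5% in a larger share of poor embryos.

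Separation by level was also rare. Among 5312 entries present in at least 6 embryos, every rich embryo was above every poor embryo for 26 (0.489%), and every poor embryo was above every rich embryo for 0 (0%). Leaving out 1 embryo at a time gave 25 to 52 and 0 to 2 such entries. Under quantile normalization the numbers were 4 and 1, and under median-ratio scaling 24 and 1. The highest of the 26 was Cand1, an exchange factor of cullin ubiquitin ligases, at 56.1 to 193 RPKM (median 101.7) in rich and 4.13 to 47.7 RPKM (median 28.2) in poor embryos. It was present in all 14 embryos, and the difference of medians was 1.82 on the log2(RPKM + 1) scale.

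The other genes of this set were named after their values were seen, and a shared function was not tested. Bicd2, a dynein adaptor, was at 23.3 to 110 RPKM in rich and 0.414 to 11.6 RPKM in poor embryos. Ttll5, a tubulin glutamylase, was at 5.18 to 52.9 RPKM in rich and 0.0684 to 1.82 RPKM in poor embryos. Arpp19, which inhibits protein phosphatase 2A at entry into mitosis, was at 19.6 to 59.5 RPKM in rich and 0 to 6.91 RPKM in poor embryos.

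Cse1l, the export receptor of importin alpha, was at 5.30 to 82.0 RPKM in rich and 0.0236 to 1.79 RPKM in poor embryos. For Rhobtb2, Nvl, Vps50, Tub, Ctc1 and Zbtb37, some rich embryos were themselves under 1 RPKM, as for Vps50 at 0.122 RPKM against a highest poor value of 0.116.

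The entries that poor embryos lacked were not the same in each poor embryo. For entries whose median in the rich embryos was 10 to 100 RPKM (2965 entries), 26.6 to 46.8% were under 1 RPKM in a poor embryo, 16.5 to 22.8% at 1 to 10, a median of 26.1% at 10 to 100 and 13.2 to 15.6% at 100 RPKM or more. In a rich embryo, set against the median of the other 7, 8.35 to 26.5% were under 1 RPKM and 45.6 to 65.2% at 10 to 100, and 9.47 to 13.8% were at 100 RPKM or more. Only 3.37 to 5.94% of these entries had no read at all in a poor embryo. Reads shared within a lane were counted on values under 1 RPKM only, and their part in this share was not tested. Of the entries at 100 RPKM or more in the rich median, 3.07 to 6.70% were under 1 RPKM in poor embryos and 0.938 to 6.38% in rich embryos, and these ranges overlapped.

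Pairs of poor embryos shared less than pairs of rich embryos. Of the entries present in either embryo of a pair, 35.2 to 44.0% (median 37.8%) were present in both for the 15 poor pairs, 33.4 to 46.8% (median 41.5%) for the 48 pairs of a rich and a poor embryo, and 43.7 to 56.3% (median 49.5%) for the 28 rich pairs. A rich embryo contained 62.8 to 83.2% (median 71.8%) of the entries of a poor embryo. Shares of this kind depend on the numbers of entries that set the classes.

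In 3 groups, rich and poor embryos of the same treatment could be set side by side. VC(8-15 h) replicate 2 lacked 3808 of the 6342 entries present in replicate 1, and 23.7% of its own 3322 entries were not present there. TSA+VC(0-8 h) replicate 1 lacked 45.9% of the 6728 entries of replicate 2. Control replicate 2 lacked 38.7% of the 3235 entries shared by replicates 1 and 3. The lacking entries had a median level of 17.5, 15.1 and 28.9 RPKM in the rich embryos of these groups, and those kept had 44.0, 36.9 and 53.2 RPKM.

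These 3 sets come from different embryos. Of the entries lacking in the poor VC(8-15 h) embryo that the rich TSA+VC(0-8 h) embryo had, 47.0% (1050 of 2235) were lacking in the poor TSA+VC(0-8 h) embryo as well, against 19.5% (452 of 2320) of those it kept. In Control embryos the shares were 56.2% and 18.5%. The lacking entries were lower in level than the kept ones, and these shares were not matched for level. They also use the presence calls that set the classes, so they are a description. In all, 168 entries were lacking in the poor embryo of all 3 groups. The separate losses were large, at 3808 of 6342 entries for VC(8-15 h), 3087 of 6728 for TSA+VC(0-8 h) and 1251 of 3235 for Control. Losses of this size overlap in part by chance. Whether 168 is more than such an overlap was not tested, so these entries are not shown to be a recurrent set. By median level in the rich class, the highest of the 168 was an entry of Tpx2, a spindle assembly factor. It was at 0 to 779 RPKM (median 245) in rich embryos and 0 to 1.96 RPKM in poor embryos. With its entries summed, Tpx2 was present in every embryo, at 147 to 1430.1 RPKM in rich and 26.6 to 291 RPKM in poor embryos. Tmbim6, an inhibitor of cell death in the endoplasmic reticulum, was at 1.72 to 133 RPKM (median 60.9) in rich and 0.0356 to 2.08 RPKM (median 0.340) in poor embryos. Npc2, a cholesterol carrier of the lysosome, was at 7.63 to 107 RPKM in rich embryos, and reached 303 RPKM in one poor embryo.

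Gene lists, with the entries of each gene summed, are read against all 11195 genes present in any embryo, of which 46.5% were present in the median rich and 33.3% in the median poor embryo. Of 27 lists, 25 had a higher median number of genes present in rich embryos and 2 had equal medians. In none of the 27 did the numbers of rich and poor embryos fail to overlap. The share of summed RPKM had a higher median in rich embryos for 14 lists and in poor embryos for 13. Members named here that are not among the 4 highest of their list were chosen after their values were seen.

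Of 52 genes for RNA polymerase II, general transcription factors and mediator, 27 to 44 (median 35) were present in rich and 18 to 29 (median 20.5) in poor embryos, which is 67.3% and 39.4% of the list. Med14, a backbone subunit of mediator, was at 12.6 to 114 RPKM in rich and 0.280 to 41.4 RPKM in poor embryos. Polr2b, the second largest polymerase subunit, was at 18.1 to 108 RPKM in rich and 10.7 to 158 RPKM in poor embryos, and present in all.

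Of 39 genes of the cell cycle and meiotic arrest, 27 to 35 were present in rich and 23 to 28 in poor embryos. They took 1.87 to 3.29% of the summed RPKM in rich (median 2.47%) and 0.996 to 2.36% in poor embryos (median 1.63%). Cdc20, an activator of the anaphase-promoting complex, was at 34.5 to 318 RPKM (median 183) in rich and 2.92 to 64.3 RPKM (median 18.8) in poor embryos. Cdc25a, a phosphatase that activates cyclin-dependent kinases, was at 0.968 to 97.9 RPKM (median 48.3) in rich and 0.0845 to 7.27 RPKM (median 0.517) in poor embryos. Ccnb1, cyclin B1, overlapped between the classes, at 74.5 to 419 RPKM and 17.8 to 346 RPKM, as did Wee2, the oocyte kinase that inhibits Cdk1, at 117 to 434 and 81.0 to 584 RPKM.

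Of 34 genes of energy and pyruvate metabolism, 15 to 22 were present in rich and 9 to 15 in poor embryos. The glucose transporter gene Slc2a3 was at 1.95 to 66.0 RPKM (median 26.1) in all rich embryos and at 0 to 4.93 RPKM (median 0.0752) in poor embryos, where 1 of 6 had it present. The lactate and pyruvate transporter gene Slc16a1 was present in 6 rich and 2 poor embryos. The 4 highest members, Pkm, Pdhb, Cs and Aldoa, had higher medians in rich embryos, and their ranges overlapped. Gapdh and Ogdh had higher medians in poor embryos, at 30.5 and 22.9 RPKM against 27.3 and 1.23 RPKM in rich embryos. In this list 27 genes were present in a larger share of rich and 4 in a larger share of poor embryos, against 7794 and 2410 of all 11195 genes. Of 66 genes of oxidative phosphorylation, 13 to 29 (median 23) were present in rich and 10 to 21 (median 14) in poor embryos. Their median share of the summed RPKM was 0.435% in rich and 0.572% in poor embryos. The 4 highest members did not share a direction. Atp5b, of the ATP synthase, was at 66.8 to 398 RPKM (median 262) in rich and 4.57 to 173 RPKM (median 49.8) in poor embryos. Atp5a1, of the same enzyme, had medians of 99.0 RPKM in rich and 87.4 RPKM in poor embryos. Atp5g1, also of this enzyme, had medians of 71.8 and 104.8 RPKM, and Ndufa9, of complex I, of 8.06 and 27.7 RPKM.

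Of 29 genes activated at the two-cell stage, 13 to 24 (median 17.5) were present in rich and 7 to 14 (median 14) in poor embryos. Zscan4f was present in 3 rich embryos and listed at 0 in all 6 poor embryos, and its highest value was 32.2 RPKM. Zscan4d, of the same family, was present in 3 rich embryos and in 1 poor embryo, there at 9.32 RPKM. The 4 highest members were Sp110, Tmem92, Zfp352 and Pramel13. Median levels in rich and poor embryos were 919.5 and 386 RPKM for Sp110, 102.2 and 71.3 for Tmem92, and 75.7 and 43.5 for Pramel13. Zfp352 went the other way, at 0.326 to 156 RPKM (median 69.7) in rich and 1.55 to 225 RPKM (median 91.5) in poor embryos. Tdpoz2 was at 0.562 to 252 RPKM (median 20.04) in rich and 0.254 to 260 RPKM (median 154) in poor embryos. The list thus held genes with higher medians in either class. By presence, 24 of its genes were present in a larger share of rich and 4 in a larger share of poor embryos. Over all 11195 genes these numbers were 7794 and 2410, so a lean to the rich class is not particular to this list. Members of the Zscan4, Tdpoz and Usp17l families are near-identical copies, among which reads could be divided.

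Of the 9 Nlrp genes of the oocyte, 5 to 9 (median 7) were present in rich and 3 to 5 (median 3) in poor embryos. Nlrp4g was at 0.178 to 53.3 RPKM in rich and 0.0897 to 1.28 RPKM in poor embryos. Nlrp14 was at 5.79 to 114 RPKM in rich and 0.403 to 137 RPKM in poor embryos. Of the 8 genes of the subcortical maternal complex, which holds proteins stored in the egg, 4 to 6 were present in rich and 2 to 5 in poor embryos. For genes of the zona pellucida and oocyte-secreted factors the median was 6 of 10 in both classes, and for pluripotency factors it was 8.5 and 8 of 16.

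**Figure D5:**
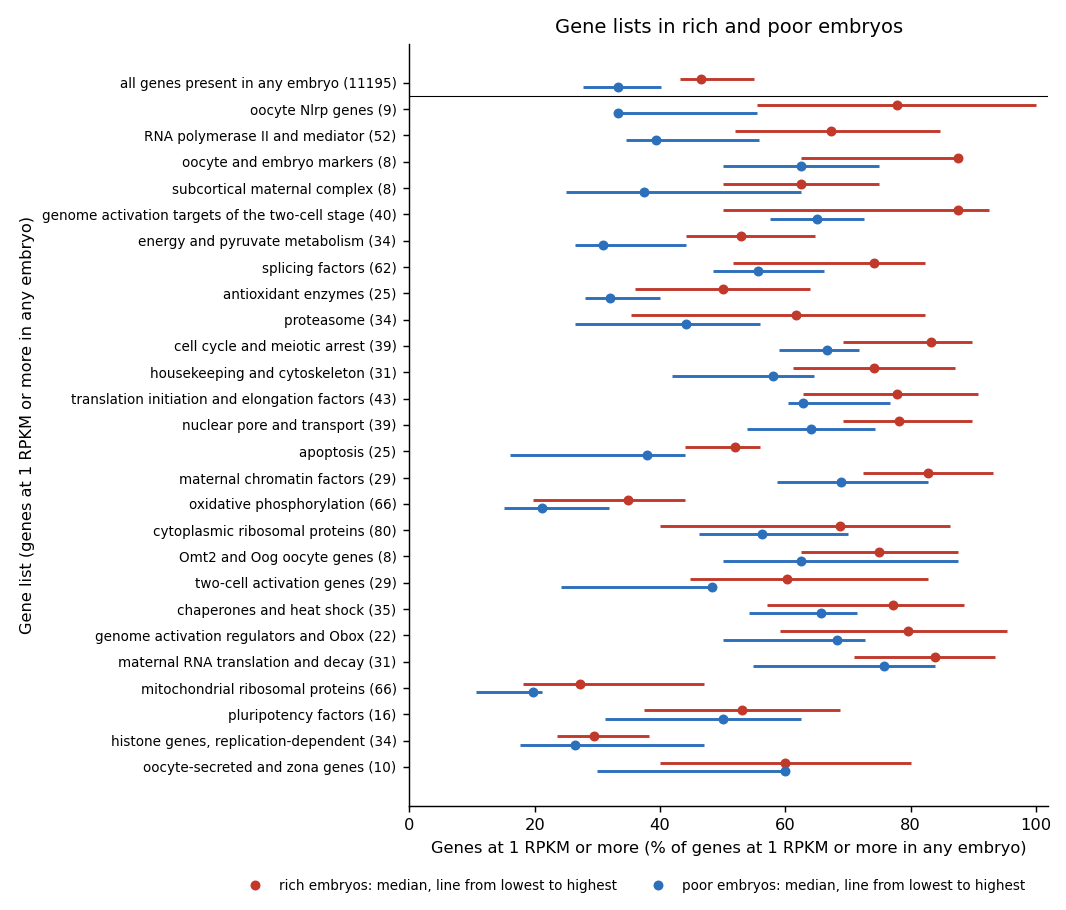
Share of each list's genes at 1 RPKM or more (x axis, in % of the genes present in any embryo, whose number stands in brackets), as the median (point) and the range from lowest to highest (line) of the 8 rich and the 6 poor embryos. All genes together stood at 46.5 and 33.3%, and in every list shown apart from the zona list, where both medians were 60%, the rich median lies to the right of the poor one.

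No entry was higher in every poor than in every rich embryo, so the genes with a larger share in poor embryos were ranked by the difference of the median shares of summed RPKM over the 848 common entries, after the values were seen. Ccdc82 came first, with a median share of 3.66% in poor and 2.79% in rich embryos. Omt2a followed with 0.528 and 0.195%, Omt2b with 0.407 and 0.183%, Eif4e1b with 0.295 and 0.162% and Bmi1, of the Polycomb repressive complex 1, with 0.252 and 0.132%. All 5 overlapped between the classes.

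The Omt2a entry was at 6390 RPKM in TSA(0-8 h) replicate 1, 4601 in replicate 2 and 2600.5 in replicate 3, at 1106 in TSA+VC(0-8 h) replicate 1, 916 in Control replicate 2 and 26.9 in VC(8-15 h) replicate 2. In rich embryos it was at 341 to 1885 RPKM (median 713). The 3 TSA(0-8 h) embryos were thus above every rich embryo, and the poor embryo with the fewest entries was below every rich embryo. Omt2a has 2 entries, among which reads could be divided, and their sum was at 477 to 2469 RPKM in rich and 1022 to 10378 RPKM in poor embryos, so that no poor embryo was below every rich one for the gene. Omt2b had the same highest and lowest embryos among the poor, at 5030 and 139 RPKM, and was at 357 to 2919 RPKM in rich embryos. Treatment and class cannot be told apart for TSA(0-8 h), which has no rich embryo.

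Bmi1 was at 340 to 1786 RPKM (median 984) in poor and 346 to 958 RPKM (median 482) in rich embryos. Other genes of larger median share in poor embryos were Ptma, the chromatin protein prothymosin, Tpt1, a translationally controlled tumour protein gene, Eif1, a start codon selection factor, and Oog3, an oocyte gene. Tpt1 was at 10.3 to 706 RPKM (median 334) in poor and 3.87 to 413 RPKM (median 91.5) in rich embryos. Bri3, a membrane protein gene, was at 5.06 to 987 RPKM (median 303) in poor and 3.38 to 183 RPKM (median 30.9) in rich embryos. In 4 poor embryos Bri3 was above every rich embryo.

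Genes of larger median share in rich embryos within the common set were Lars2 (0.411 and 0.146%), Fkbp1a, a peptidyl-prolyl isomerase (0.0708 and 0.0124%), Atp5b (0.0715 and 0.0132%) and Rnf10 (0.116 and 0.0660%). An entry of Sp110, a nuclear body protein, was at 5.50 to 1525 RPKM (median 722) in rich and 2.05 to 609 RPKM (median 2.98) in poor embryos. That entry is counted over 208 bases only, since Sp110 has 2 entries, and the 2 together were at 187 to 1854 RPKM in rich and 22.2 to 1679 in poor embryos.

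With RPKM as deposited, the difference of medians, rich minus poor, on the log2(RPKM + 1) scale had a median of 0.23 over the 848 entries, and 535 were higher in rich and 313 higher in poor embryos (63.1% higher in rich). At least 2-fold differences were found for 171 entries higher in rich and 56 higher in poor embryos. As shares of the summed RPKM, 65.4% were higher in rich embryos (median 0.30), and after quantile normalization 60.02% were (median 0.19). Median-ratio scaling over these same entries, which centres them by construction, gave 428 and 420 (50.5% higher in rich, median 0.02). Under that scaling, the entry of Spdl1, a spindle and kinetochore adaptor, was higher in every poor embryo than in every rich one, at 108 to 257 RPKM (median 154) and 47.9 to 129 RPKM (median 83.9) before scaling.

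Transcript length enters both RPKM and the lowest level that can be seen, so it is not independent of the presence calls and is given as a description. The median length, recovered from the RPKM steps, was 3595 bases for the 848 common entries. It was 3343 for the 339 entries present in at least 6 rich and at most 1 poor embryo. For the 4568 entries present in only 1 or 2 embryos it was 2104. The recovered length is the smallest that fits the values, so it can be too short where few embryos have reads. How far this lowers the median of the entries present in 1 or 2 embryos was not tested. At the same level, 10 to 100 RPKM in the rich median, entries present in all 14 embryos had a median length of 4253 bases (434 entries) and those present in at most 1 poor embryo 2946 bases (328 entries). Of the common entries, those at least 2-fold higher in poor embryos had a median length of 2760 bases and those at least 2-fold higher in rich embryos 3267 bases. A comparison of CG content around the start between these sets is void, since a single start was matched for only 60.4 to 67.3% of the genes of each set.

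The number of entries, rather than the class, was compared between treatments. Embryos given VC had 5531 ± 1066 entries (SD, n = 8) and those without VC had 4410 ± 752 (SD, n = 6), a difference of 1121 (exact permutation test, two-sided, p = 0.0506, adjusted over the 2 comparisons p = 0.101). The difference was 868 in lane 3, 1771 in lane 4 and 876 in lane 5. With labels exchanged within lanes, the exact permutation p was 0.0622. Without VC(8-15 h) replicate 2, the poorest embryo, the difference was 1437 (exact permutation test, adjusted p = 0.0128), so the call depends on this embryo. Over all alternatives the adjusted p was 0.0128 to 0.555.

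Embryos given TSA had 5043 ± 1023 entries (SD, n = 8) and those without TSA had 5061 ± 1246 (SD, n = 6), with an exact permutation p of 0.977 (two-sided, adjusted p = 0.977). Within lanes the difference was -919 in lane 3, 813 in lane 4 and -455 in lane 5, and its sign was not shared. Rich embryos were 6 of 8 with VC and 2 of 6 without (Fisher's exact test, two-sided, p = 0.277), and 4 of 8 with TSA and 4 of 6 without (p = 0.627). The effect of VC was larger with TSA than without by 1183 entries, and permuting TSA within the embryos with and without VC gave an exact p of 0.242. The TSA+VC(8-15 h) embryos came from independent nuclear transfer experiments. For embryos of the other groups the labels do not say this, and the p-values measure the spread between single embryos.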

How the data were processed

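RNA of 14 single SCNT embryos was sequenced in 1 library each. After quality filtering, the authors aligned reads to mm9 (TopHat, version not given in the sources used here) and deposited an RPKM value, scaled for transcript length and total, for each of 25650 entries, of which 25250 matched a symbol in the RefSeq table. The deposited values were not replaced by counts for any test. Reads and lengths were recovered from the steps between values: whole reads at a whole length between 200 and 30000 bases (tolerance 0.01 reads) were found for 17537 of 17538 entries with reads, and they summed to 100.2 to 100.7% of the estimated totals of 3021540 to 13589389 reads. The smallest length that fitted was taken. Of these entries, 14532 had reads in 2 or more embryos, and for the others a fitting length was nearly certain to be found. Recovery was tested on simulated entries with reads in 2 or more embryos, and separation counts were tested on simulated data. Where a gene has several entries, an entry can be counted over the bases that it alone holds. Members and lists were chosen with earlier results of these data known. Named entries were, 1 per gene, the 15 highest medians of the common set, up to 15 of all rich and no poor embryos, and for lists the 4 highest medians. No entry met the rule for higher in poor embryos, and genes named outside these rules were chosen after their values were seen. Some items are not reported here. Log2 values use a pseudocount of 1. Treatments were compared with two-sided exact permutation tests, the depth relation with 100000 permutations, with Benjamini-Hochberg adjustment (threshold 0.05). Alternatives were other limits, scalings, thinning, gene sums, lanes, the replicate number as a block and leaving out each embryo. Tests ran in scipy 1.17.1 with numpy 2.4.6, tables in pandas 2.3.3 and plots in matplotlib 3.10.9, under Python 3.11.15.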

Additional observations from a re-analysis of the deposited data

Results flagged for a closer look

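Values above 0 and under 1 RPKM on entries that were at 100 RPKM or more in 1 other embryo only are outside the presence counts. Such reads were found in 52.1% of cases when the high embryo was in the same sequencing lane and in 6.45% when it was in another lane. This count covers values under 1 RPKM only, but presence calls at 1 RPKM or more also changed under the added lane limit of 0.5%. With that limit the 8 richest embryos were the same, and 744 entries in place of 848 were common to all 14. The part of reads shared within a lane in the other results was not tested. In the groups of embryos with and without VC and with and without TSA, no embryo stood apart in its number of entries by Dixon's criterion.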

How the results depend on the processing

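The 8 richest embryos were the same 8 at 5 RPKM, after thinning to the shallowest depth, with gene sums and with the lane limit, and 7 of them were at 0.1 RPKM. The number of entries common to all 14 embryos was 2262 at 0.1 RPKM and 411 at 5 RPKM, and 848 to 942 on leaving out 1 embryo. Entries in all rich and no poor embryos were 0 at 0.1 RPKM and 6 at 5 RPKM, 137 when 1 exception was allowed in each class, and 4 to 12 on leaving out 1 embryo: 12 without TSA+VC(0-8 h) replicate 1, 11 without TSA(0-8 h) replicate 1, 9 without TSA+VC(8-15 h) replicate 1, 8 without TSA(0-8 h) replicate 3, VC(8-15 h) replicate 2 or Control replicate 3, and 7 without TSA(0-8 h) replicate 2, TSA+VC(8-15 h) replicate 2, VC(0-8 h) replicate 1 or Control replicate 1 or 2. Entries in all poor and no rich embryos stayed at 0 under every alternative run. Entries with every rich above every poor embryo were 4 under quantile normalization, 24 to 29 under the other scalings, filters, thinning and gene sums, and 25 to 52 on leaving out 1 embryo. Above 1.5 times the full number were those without TSA(0-8 h) replicate 1 (50), replicate 3 (52), TSA+VC(0-8 h) replicate 1 (50), TSA+VC(8-15 h) replicate 2 (40), Control replicate 2 (46) and Control replicate 3 (40). Entries with every poor above every rich embryo were 1 under median-ratio scaling (Spdl1) and 1 under quantile normalization (Zfp518b), and 0 to 2 on leaving out 1 embryo, with 2 without TSA+VC(0-8 h) replicate 1 and 1 without TSA(0-8 h) replicate 2, TSA+VC(8-15 h) replicate 2 or VC(8-15 h) replicate 2. The cause was not tested.

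The difference with VC was 950 to 1437 entries on leaving out 1 embryo (exact permutation test, adjusted p = 0.0128 to 0.213) and passed the threshold only without VC(8-15 h) replicate 2. With the replicate number as a block it was the same 1121 (exact permutation p = 0.0467, adjusted p = 0.0933), and that of TSA had p = 0.975. The numbers were not taken to pair the embryos, since no correlation was over 0.1: among 9 same-numbered pairs of the groups of 3, deviations from group means over 5312 entries had correlations of 0.0052 to 0.0573 (median 0.0376), against -0.0457 to 0.0071 (median -0.0158) in 18 pairs of other numbers. The same-numbered pairs had the higher median, and the limit of 0.1 does not show that the embryos were unpaired. In these groups, embryos of the same number also shared a lane, so number and lane cannot be told apart. The difference with TSA was -365 to 239 entries on leaving out 1 embryo, so its sign rests on single embryos (exact permutation test, adjusted p = 0.538 to 0.989). The correlation with reads was 0.147 to 0.431 on leaving out 1 embryo and -0.0360 at 0.1 RPKM, and none of the 19 alternatives passed the threshold. Of 198 recomputed differences of named entries, 168 moved by less than the SD within classes, and 30, all of entries higher in every rich than in every poor embryo, became larger by more, under the pseudocount of 0.1 or shares. No sign changed with the pseudocount of 0.1, while among the 15 highest common entries 1 changed sign under shares and 2 under median-ratio scaling, as did Zbed3 among those of lower share in poor embryos. Depth limits entries near 1 RPKM in short transcripts most.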

Other observations

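Of 80 genes of cytoplasmic ribosomal proteins, 32 to 69 were present in rich and 37 to 56 in poor embryos, and they took 0.495 to 2.04% and 0.839 to 3.64% of the summed RPKM. The median shares of these genes present were 68.75 and 56.25%, against 46.5 and 33.3% of all genes. Of 40 target genes of genome activation at the two-cell stage, 20 to 37 were present in rich embryos (median 35, 87.5%). In poor embryos 23 to 29 were (median 26, 65%). The 4 highest members did not share a direction. Npm1, a nucleolar chaperone, was at 18.3 to 648 RPKM (median 309) in rich and 431 to 3299 RPKM (median 805) in poor embryos. Nolc1, a nucleolar phosphoprotein, was at 13.9 to 506 RPKM (median 218) in rich and 3.63 to 443 RPKM (median 123) in poor embryos. Rrn3, an initiation factor of RNA polymerase I, was at 114 to 306 RPKM (median 173) in rich and 86.9 to 499 RPKM (median 208) in poor embryos. Dkc1, a pseudouridine synthase, was at 1.23 to 257 RPKM (median 63.2) in rich and up to 537 RPKM (median 268) in poor embryos. Dbf4, the activator of the Cdc7 replication kinase, was at 327 to 3923 RPKM (median 2595) in rich and 213 to 3274 RPKM (median 476) in poor embryos. Hspa5, a chaperone of the endoplasmic reticulum, was at 108 to 1410 RPKM (median 536) in rich and 62.0 to 527 RPKM (median 206) in poor embryos.

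Of 25 antioxidant enzyme genes, 9 to 16 were present in rich and 7 to 10 in poor embryos (medians 50 and 32%). Of 34 proteasome genes, 12 to 28 and 9 to 19 were present (medians 61.8 and 44.1%). Over all genes these medians were 46.5 and 33.3%, so a gap between the classes is not particular to these lists. Of 62 splicing factor genes, 32 to 51 were present in rich and 30 to 41 in poor embryos (medians 74.2 and 55.6%). Of 34 replication-dependent histone genes, 8 to 13 were present in rich and 6 to 16 in poor embryos (medians 29.4 and 26.5%). The highest number was thus in a poor embryo.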
